A study of Mus musculus with 8 samples.

Results

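The 10 genes described here are markers of myeloid cells, the lineage of macrophages, monocytes and granulocytes, measured by RNA-seq in mouse satellite cells, which are the resident stem cells of muscle. They were taken by symbol, all 10 were found among the 24328 genes of the table, and 8 of them reached at least 1 FPKM (fragments scaled to transcript length and library) in at least 2 of the 8 libraries and were tested with 12515 genes in all. All mice were 2 months old and on a C57BL/6 background, and the 4 groups had 2 libraries each. In the PFA-perfused group Pax7-nGFP mice were perfused with paraformaldehyde, a fixative, before the muscle was dissociated, and in the PBS-perfused group mice of the same genotype were perfused with saline. The unperfused group was wild type, and the injury-activated group was wild type muscle taken 2.5 days after injury, also without perfusion. In every group cells were sorted as positive for Vcam and negative for CD31 (endothelium), CD45 (leukocytes) and Sca-1 (stromal and endothelial cells), so leukocytes were to be excluded by the sort. Fixation came with another RNA purification kit and perfusion with another genotype than the wild type groups, so the members of these pairs cannot be told apart. Whether both libraries of a group come from different animals is not given, and the p-values below measure only the spread between these libraries.

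Macrophages and other myeloid cells enter muscle after injury, clear debris by phagocytosis, and present antigen. Their markers cover the steps of this work: lysosomal enzymes and membrane proteins (Lyz2, Ctss, Cd68, Laptm5), the chaperone of antigen-presenting MHC class II (Cd74), the complement starter C1q (C1qa, C1qb), signalling adaptors of activating receptors (Tyrobp, Fcer1g), and the receptor of the macrophage growth factors (Csf1r). Transcription of many of them in myeloid cells is driven by PU.1, a factor of the ETS family encoded by Spi1. In bulk libraries such as these, fewer myeloid cells and less myeloid RNA per cell cannot be told apart.

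Of the 10 genes, 6 had an entry used in the RefSeq promoter table (build GRCm38.p6), and their 250 bases before the start were searched on both strands for the core of the PU.1 site, GAGGAA, which reads TTCCTC on the opposite strand. C1qb, Cd68, Ctss and Laptm5 held 1 match each and Lyz2 and Fcer1g held 0. The motif was in 6252 of 27025 promoters of the same length (23.1%). A longer form, GAGGAAGT, which contains the first motif, had 0 matches in the 6 promoters and was in 2.44% of all promoters. The stretches of 4 members are shown 5′ to 3′ because these genes carry the largest and the most divergent differences below, with the match in capitals: C1qb, minus strand, chr4:136886201-136886450; Cd68, minus strand, chr11:69666171-69666420; Ctss, plus strand, chr3:95526536-95526785; and Lyz2, minus strand, chr10:117282322-117282522, which has no match. The Lyz2 stretch is cut to 201 bases, those before every annotated start, while its search covered 250.
C1qb: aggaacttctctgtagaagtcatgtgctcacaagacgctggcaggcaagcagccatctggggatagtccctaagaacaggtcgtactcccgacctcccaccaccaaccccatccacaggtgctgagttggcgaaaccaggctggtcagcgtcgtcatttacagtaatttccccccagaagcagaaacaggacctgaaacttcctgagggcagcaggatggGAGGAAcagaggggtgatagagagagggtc
Cd68: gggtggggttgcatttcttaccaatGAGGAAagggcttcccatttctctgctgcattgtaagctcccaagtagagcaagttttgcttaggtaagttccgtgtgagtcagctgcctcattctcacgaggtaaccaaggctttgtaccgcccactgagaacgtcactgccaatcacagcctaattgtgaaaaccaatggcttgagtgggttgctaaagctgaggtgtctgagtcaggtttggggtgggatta
Ctss: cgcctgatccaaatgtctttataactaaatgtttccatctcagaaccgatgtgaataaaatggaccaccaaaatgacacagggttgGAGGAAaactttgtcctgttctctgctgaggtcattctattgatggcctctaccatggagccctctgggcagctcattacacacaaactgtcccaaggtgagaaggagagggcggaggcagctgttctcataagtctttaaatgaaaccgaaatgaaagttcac
Lyz2: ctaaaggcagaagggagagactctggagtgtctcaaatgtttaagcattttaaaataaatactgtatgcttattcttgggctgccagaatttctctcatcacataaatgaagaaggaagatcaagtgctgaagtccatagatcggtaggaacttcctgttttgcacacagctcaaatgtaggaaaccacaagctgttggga
These matches are letters in a window only, and the libraries hold no measure of binding.

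Across the table, total FPKM was 461454 to 582336 per library and the number of reads behind it is unknown. The ribosomal RNA gene Rn45s took 9.80% and 19.4% of the total with PFA perfusion, 0.893% and 6.64% with PBS perfusion, and 0.0266% to 0.363% in the other 4. Pax7, the defining factor of satellite cells, was at 328 and 567 FPKM in PFA-perfused, 48.3 and 79.6 in PBS-perfused, 19.8 and 20.4 in unperfused and 4.59 and 4.4 in injury-activated libraries. Vcam1, the sorted surface protein, was at 84.3 to 390 FPKM in all 8. Ptprc, which encodes the CD45 used to deplete leukocytes, reached at most 0.250 FPKM in any library. Its values were 0.0269 and 0.0306 (PFA-perfused), 0.119 and 0.0805 (PBS-perfused), 0 and 0.0195 (unperfused), and 0.203 and 0.250 (injury-activated). The highest 2 Ptprc values were thus the injury-activated ones.

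Summed FPKM of the 10 markers was 9.17 and 7.95 for PFA-perfused cells, 49.0 and 47.2 for PBS-perfused cells, 38.5 and 26.9 for unperfused cells and 82.8 and 90.9 for injury-activated cells. This was 0.00137% to 0.0165% of the total of a library. The groups' sums did not overlap, but they were made of different genes. Lyz2 gave 51.9% and 48.5% of the sum after injury, and Cd68 83.3% and 85.5% in unperfused libraries. In the PBS-perfused libraries Cd74 gave 47.1% and 27.0%, Lyz2 27.3% and 28.2%, and Cd68 11.8% and 24.5%, so Cd74 led in replicate 1 only. By group mean, 7 markers were highest in the injury-activated group, 2 (Cd74 and C1qa) in the PBS-perfused group and 1 (Cd68) in the unperfused group.

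**Figure D1:**
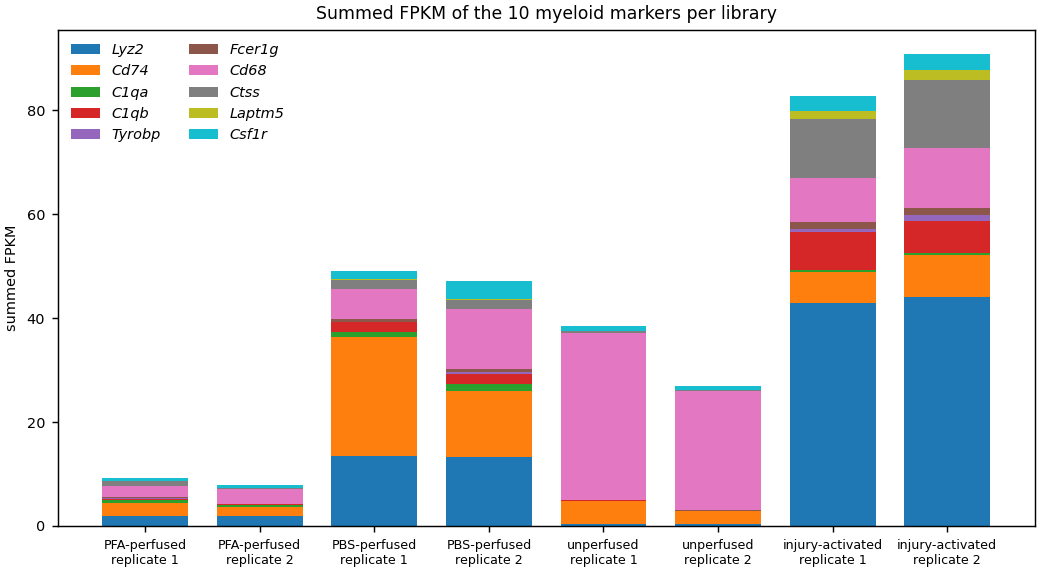
Summed FPKM of the 10 myeloid markers (vertical axis) in each of the 8 libraries, with each gene's part as a coloured segment. Lyz2 is the widest segment after injury and Cd68 fills over 83% of both unperfused bars, while the PFA-perfused bars reach only 9.17 and 7.95.

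Lyz2, which encodes the lysozyme of macrophages and neutrophils, separated all 4 groups. It stood at 1.86 and 1.88 FPKM in PFA-perfused libraries, 13.4 and 13.3 in PBS-perfused, 0.390 and 0.320 in unperfused, and 42.9 and 44.0 in injury-activated libraries. The injury-activated libraries were highest and the unperfused lowest, and no 2 groups overlapped. On the log2(FPKM + 1) scale, which understates the change of genes at low level, Lyz2 was higher after injury than in unperfused cells by 5.04 ± 0.18 (SE; limma with Benjamini-Hochberg adjustment, adjusted p = 3.82e-07). It was higher in PBS-perfused than in PFA-perfused cells by 2.32 (adjusted p = 2.21e-05). Unperfused cells were lower than PFA-perfused cells by a log2 difference of -1.08 (adjusted p = 4.18e-04). Lyz1, a close paralogue of Lyz2 whose reads the counting could share, had 0 to 0.886 FPKM and was highest in the PBS-perfused libraries, not after injury.

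Ctss, the antigen-processing protease cathepsin S, was at 0.905 and 0.149 FPKM in PFA-perfused, 1.65 and 1.71 in PBS-perfused, 0.402 and 0.0937 in unperfused and 11.4 and 12.9 in injury-activated libraries. Both injury-activated values were far above the other 6, while the PFA-perfused and unperfused values overlapped. The log2 difference between injury-activated and unperfused cells was 3.41 ± 0.25 (SE; adjusted p = 3.87e-06, limma). The difference between PBS-perfused and PFA-perfused cells was 0.86 (adjusted p = 0.0137, limma), and it was not called without PFA-perfused replicate 2 (0.49, adjusted p = 0.101), without PBS-perfused replicate 2 (adjusted p = 0.0514) or without the filter on low values (adjusted p = 0.054). Against PBS-perfused cells, unperfused cells were lower by a log2 difference of -1.11 (adjusted p = 0.00509, limma), a call that did not hold without unperfused replicate 2 (adjusted p = 0.0538).

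Laptm5, a lysosomal membrane protein of blood cells, was near 0 outside the injured muscle. Its levels were 0.0442 and 0.0446 FPKM (PFA-perfused), 0.204 and 0.253 (PBS-perfused), 0.0288 and 0.00184 (unperfused), and 1.5 and 2.02 (injury-activated). No 2 groups overlapped, although all 6 libraries outside injury were below 0.3 FPKM. Injury-activated cells exceeded unperfused cells by a log2 difference of 1.44 (SE 0.135, adjusted p = 1.53e-05, limma). Between PBS-perfused and PFA-perfused cells the difference was 0.23 (adjusted p = 0.156), called only with a pseudocount of 0.1 (adjusted p = 0.0223).

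Cd68, a lysosomal glycoprotein used as a macrophage marker, went another way than the other 9 genes. It was at 2.11 and 2.81 FPKM in PFA-perfused, 5.77 and 11.6 in PBS-perfused, 32.1 and 23.0 in unperfused and 8.46 and 11.5 in injury-activated libraries. The unperfused libraries were highest, and the PBS-perfused and injury-activated values overlapped. Unperfused cells exceeded PFA-perfused cells by a log2 difference of 3.03 ± 0.32 (SE; adjusted p = 2.91e-05, limma) and PBS-perfused cells by 1.61 (adjusted p = 0.00285). Injury-activated cells were below unperfused cells by a log2 difference of -1.37 (adjusted p = 0.00377). PBS-perfused cells exceeded PFA-perfused cells by 1.42 (adjusted p = 0.00393).

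Cd68 lies within 1000 bases of Eif4a1, on the same strand and downstream of it in the GENCODE mouse annotation. Eif4a1 encodes a translation initiation helicase and is not a myeloid gene. Eif4a1 was at 170 and 107 FPKM in PFA-perfused, 165 and 407 in PBS-perfused, 1109 and 936 in unperfused and 301 and 324 in injury-activated libraries, so its 2 unperfused values were also the highest of all. Cd68 equalled 1.24% and 2.61% of Eif4a1 in PFA-perfused libraries, 3.5% and 2.85% in PBS-perfused, 2.89% and 2.46% in unperfused and 2.81% and 3.55% in injury-activated libraries. Over the 8 libraries Cd68 spanned 15.2-fold and Eif4a1 10.3-fold, while their ratio spanned 2.86-fold, or 1.45-fold without PFA-perfused replicate 1. The part of transcription or reads from Eif4a1 in the level of Cd68 was not tested.

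**Figure D2:**
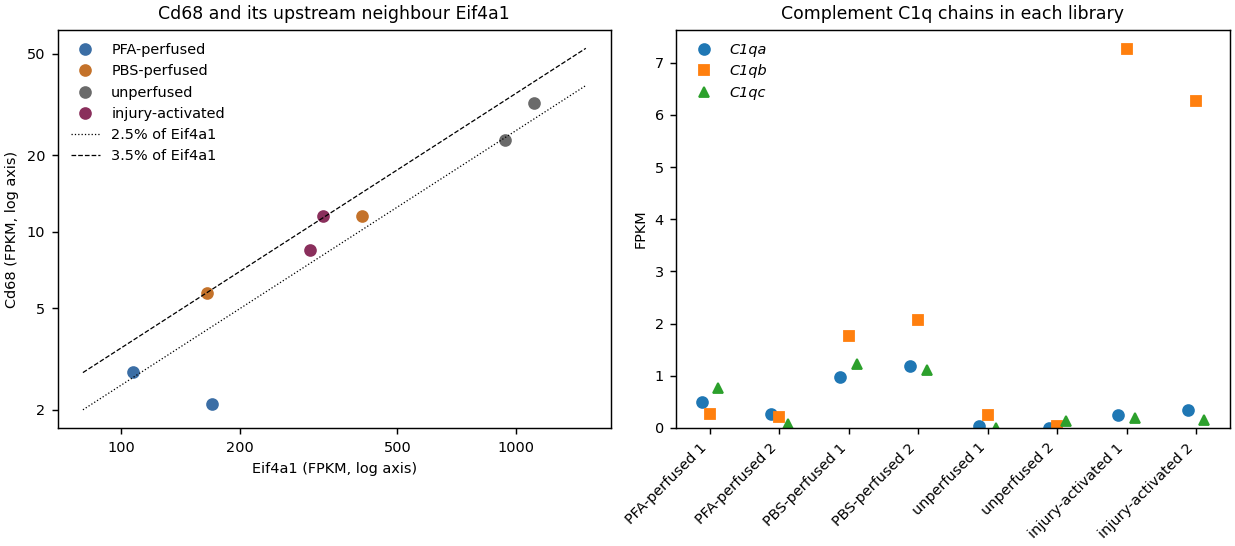
Left, Cd68 against its upstream neighbour Eif4a1 (FPKM, both axes log) with 1 point per library and lines at 2.5% and 3.5% of Eif4a1; 1 library, PFA-perfused replicate 1, is well below the lines at 1.24%. Right, FPKM of the 3 chains of C1q in each library; C1qb stands at 7.26 and 6.27 after injury, where C1qa and C1qc stay below 0.4.

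Among 24 other lysosomal genes, all tested, 11 were called higher in injury-activated than in unperfused cells, led by Ctsl (2.91), Ctsa (2.41), Grn (2.03) and Ctsd (1.96), enzymes and a cofactor of the lysosome found in most cell types. Of all tested genes 40.8% were called higher there, a share near that of the list, and the median log2 difference was 0.64 for the list and 0.17 for all tested genes. In PBS-perfused against PFA-perfused cells 4 were higher and 8 lower, where 17.8% and 46.2% of all tested genes were, and the medians were -0.49 and -0.50. This split depended on the scaling: after scaling each library by a trimmed mean of its ratios to a common reference, 10 were higher and 2 lower. Lyz2 and Ctss kept their direction in that comparison with the same scaling, and Lyz2, Ctss and Cd68 were not counted in this list.

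Cd74, the invariant chain that guides MHC class II to the antigen-loading compartment, was above 1 FPKM in every library. It stood at 2.55 and 1.81 FPKM in PFA-perfused, 23.1 and 12.7 in PBS-perfused, 4.38 and 2.58 in unperfused and 6.05 and 8.14 in injury-activated libraries. The PBS-perfused libraries were highest, and the groups did not overlap. The log2 difference between PBS-perfused and PFA-perfused cells was 2.53 ± 0.32 (SE; adjusted p = 1.8e-04, limma), and that between unperfused and PBS-perfused cells -2.05 (adjusted p = 7.1e-04). Against PBS-perfused cells, injury-activated cells were lower by a log2 difference of -1.18 (adjusted p = 0.00779, limma), a call that did not hold without injury-activated replicate 1 (-0.99, adjusted p = 0.063) or PBS-perfused replicate 1 (-0.78, adjusted p = 0.056). Its difference of 0.87 between injury-activated and unperfused cells (adjusted p = 0.0333, limma) was lost in 7 alternatives, among them the fits without unperfused replicate 2 (0.58, adjusted p = 0.218) and without injury-activated replicate 2 (0.68, adjusted p = 0.186).

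The class II chains H2-Ab1, H2-Aa and H2-Eb1, which Cd74 serves, were highest in the same group as Cd74. H2-Ab1, the beta chain of I-A, was at 2.59 and 1.52 FPKM (PFA-perfused), 19.8 and 6.65 (PBS-perfused), 0.227 and 0.777 (unperfused), and 1.36 and 1.56 (injury-activated). H2-Aa, its alpha partner, was at 6.17 and 6.68 FPKM in PBS-perfused libraries and at most 2.19 in the other 6. H2-Eb1, the beta chain of I-E, was at 2.07 and 1.83 FPKM in PBS-perfused libraries and at most 1.13 elsewhere. Of 9 genes of this system 4 were tested, and in PBS-perfused against PFA-perfused cells H2-Ab1 (2.07), H2-Aa (1.93) and H2-Eb1 (0.71) were called higher, where 17.8% of all tested genes were. H2-DMa, the alpha chain of the peptide exchanger, was lower there (-0.75), a call lost after trimmed mean scaling. Its highest values were the PFA-perfused ones (4.53 and 3.99 FPKM). The same held for Ciita, an untested gene of this system (0.860 and 0.903 FPKM in PFA-perfused libraries). All 4 were lower in unperfused than in PBS-perfused cells and in injury-activated than in PBS-perfused cells, where 36.5% and 38.8% of all tested genes were. H2-Eb1 met the filter only with its PBS-perfused libraries, so the counts in this paragraph carry that choice.

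C1qa and C1qb encode 2 of the 3 chains of C1q, which macrophages make and which starts the classical complement cascade. C1qa was at 0.497 and 0.262 FPKM in PFA-perfused, 0.969 and 1.19 in PBS-perfused, 0.0347 and 0 in unperfused and 0.252 and 0.338 in injury-activated libraries. It reached 1 FPKM in 1 library only and was not tested among the 12515 genes. In a fit of all genes without the filter, C1qa was higher in PBS-perfused than in PFA-perfused cells (log2 difference 0.59, adjusted p = 0.00623, limma) and lower in unperfused than in PBS-perfused cells (-1.03, adjusted p = 0.0014). In that fit it was also lower in injury-activated than in PBS-perfused cells (-0.68, adjusted p = 0.00265).

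C1qb was at 0.265 and 0.214 FPKM in PFA-perfused, 1.75 and 2.06 in PBS-perfused, 0.246 and 0.0270 in unperfused and 7.26 and 6.27 in injury-activated libraries. Its highest values were after injury, where those of C1qa were below the PBS-perfused ones. The log2 difference of C1qb between injury-activated and PBS-perfused cells was 1.42 ± 0.17 (SE; adjusted p = 6.07e-05, limma) and between injury-activated and unperfused cells 2.78 (adjusted p = 1.66e-06). C1qc, the third chain, was high in the same group as C1qa: it was at 1.23 and 1.11 FPKM in PBS-perfused and 0.189 and 0.144 in injury-activated libraries, and was called lower in the latter (-0.90, adjusted p = 0.00374, limma). C1qb was 0.533 and 0.817 times C1qa in PFA-perfused libraries, 1.81 and 1.74 times in PBS-perfused and 28.8 and 18.5 times in injury-activated ones. The 3 chains thus did not keep 1 ratio across the groups, and the cause was not tested.

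Among 13 tested genes of a list of 14 other complement genes, 5 were called higher (3 without PBS-perfused replicate 2) and 1 lower in PBS-perfused than in PFA-perfused cells, with a median log2 difference of 0.36 against -0.50 for all tested genes. C3, the central component, differed most there (2.33), followed by C2 (1.3), and Cfp, properdin, was the lower one (-1.19). Of all tested genes 17.8% were called higher in that comparison. In injury-activated against unperfused cells 2 were higher, among them the C5a receptor C5ar1 (1.67), and 4 lower, where 40.8% and 29.3% of all tested genes were. C5ar1 was tested only through its injury-activated libraries and C1qc only through its PBS-perfused ones. The lower ones included Serping1 (-4.07) and C1ra (-2.11), which stromal cells also express.

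Tyrobp (DAP12) and Fcer1g (the common Fc receptor gamma chain) are the adaptors that carry the ITAM signalling motif for activating receptors of myeloid cells. Tyrobp was at 0.259 and 0 FPKM in PFA-perfused, 0.121 and 0.344 in PBS-perfused, 0 and 0.0136 in unperfused and 0.724 and 1.04 in injury-activated libraries. The 2 injury-activated values were the highest, PFA-perfused and PBS-perfused values overlapped, and 2 libraries were listed at 0. It was not tested among the 12515 genes. In the fit without the filter, Tyrobp was higher after injury than in unperfused (0.90, adjusted p = 0.0043, limma), PFA-perfused (0.74, adjusted p = 0.00821) and PBS-perfused cells (0.61, adjusted p = 0.0176).

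Fcer1g was at 0.224 and 0.151 FPKM in PFA-perfused, 0.601 and 0.568 in PBS-perfused, 0.0325 and 0.0607 in unperfused and 1.31 and 1.47 in injury-activated libraries. No 2 groups overlapped. Injury-activated cells exceeded unperfused cells by a log2 difference of 1.19 (SE 0.125, adjusted p = 2.92e-05, limma). PBS-perfused cells exceeded PFA-perfused cells by 0.42 (adjusted p = 0.0161, limma), not called without PFA-perfused replicate 2 (0.37, adjusted p = 0.0511).

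Of 20 receptors and kinases that work with these adaptors only 4 were tested, and in 3 libraries outside injury at least 11 of the 20 were listed at 0. In injury-activated against unperfused cells Lyn, a Src family kinase, was higher by 1.51, the receptor Fcgr3 by 1.39 and the receptor Trem2 by 1.16. Trem2 was at 1.11 and 1.49 FPKM after injury and at most 0.152 in the other 6 libraries, and it was tested only through the injury-activated ones. Fcgr3 also met the filter only with the injury-activated libraries, since PBS-perfused replicate 1 alone reached 1 FPKM elsewhere (1.10). Lat2, an adaptor of the same pathway, was lower (-2.77): it was at 44.9 and 41.1 FPKM in unperfused libraries and 0.624 to 6.04 in the other 6, an order of groups that among the 10 markers only Cd68 shared. Without the filter on low values, 9 of this list were called higher after injury. The share of all genes called in that fit is not given here.

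Csf1r, the receptor through which macrophages depend on Csf1 and Il34, was at 0.457 and 0.633 FPKM in PFA-perfused, 1.49 and 3.45 in PBS-perfused, 0.929 and 0.789 in unperfused and 2.85 and 3.10 in injury-activated libraries. PBS-perfused and injury-activated values overlapped, and both were above the other 2 groups. PBS-perfused cells exceeded PFA-perfused cells by a log2 difference of 1.11 ± 0.25 (SE; adjusted p = 0.00404, limma) and injury-activated cells exceeded unperfused cells by 1.10 (adjusted p = 0.00337). The lower level in unperfused than in PBS-perfused cells (-0.84, adjusted p = 0.0203, limma) was not called in 6 alternatives, among them trimmed mean scaling (-0.55, adjusted p = 0.104) and the fit without PBS-perfused replicate 2 (-0.43, adjusted p = 0.074). Csf1r is overlapped on the other strand by Hmgxb3, which was at 2.42 to 18.6 FPKM and lowest after injury. Whether the counting used strand is not given in the sources used here, so reads of the 2 genes cannot be told apart.

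The ligands moved with their own patterns. Csf1 was at 1.60 and 1.31 FPKM in PFA-perfused, 41.3 and 47.5 in PBS-perfused, 26.7 and 20.7 in unperfused and 77.2 and 53.8 in injury-activated libraries, and it was higher in PBS-perfused than in PFA-perfused cells by 4.21 (adjusted p = 7.17e-06, limma). Il34 was at 28.4 and 23.9 FPKM after injury and at most 3.16 in the other 6 libraries, with a log2 difference of 3.62 from unperfused cells (adjusted p = 3.64e-06, limma). In the list of 14 ligands, receptors and regulators around Csf1r, 12 were tested, and 8 were called higher in PBS-perfused than in PFA-perfused cells, where 17.8% of all tested genes were, with medians of 1.42 and -0.50. Those 8 included Csf3 (4.05), tested only through its PBS-perfused libraries, and the transcription factors Cebpb (3.63) and Runx1 (3.32), none of which is specific to myeloid cells. In injury-activated against unperfused cells 2 of the 12 were higher and 6 lower, where 40.8% and 29.3% of all tested genes were, with medians of -0.62 and 0.17, and Runx1 was among the lower ones (-3.21). Spi1, which encodes PU.1, was at 0.488 and 0.489 FPKM in PBS-perfused libraries and at most 0.0673 in the other 6, the injury-activated ones included.

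**Figure D3:**
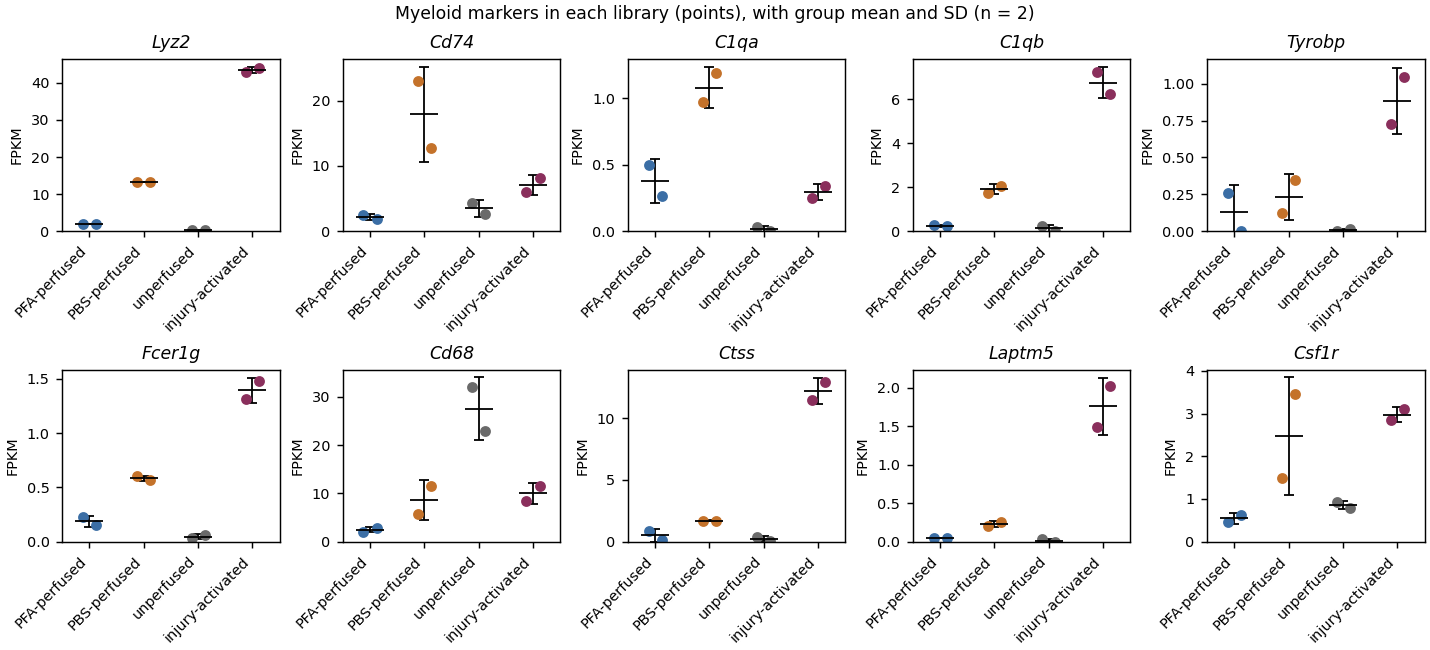
FPKM of each of the 10 markers (vertical axes, each to its own scale from 0) in the 4 groups; points are libraries and bars the group mean and SD (n = 2). Lyz2, C1qb, Tyrobp, Fcer1g, Ctss and Laptm5 are highest after injury in both libraries, Cd74 and C1qa in the PBS-perfused libraries, and Cd68 in the unperfused ones at 32.1 and 23.0.

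The 8 tested markers were then counted in each comparison and read against the share of all 12515 genes called. Of these 8, Fcer1g and Laptm5 passed the filter only through their injury-activated libraries, and C1qb, Ctss and Csf1r only through the injury-activated and PBS-perfused ones, so counts in comparisons with these groups carry that choice. In PBS-perfused against PFA-perfused cells 7 of 8 were called higher, where 17.8% of all tested genes were called higher and 46.2% lower. The median log2 difference of the 8 was 1.17, against -0.50 for all tested genes. Of all 10 genes, 9 had both PBS-perfused values above both PFA-perfused values, Tyrobp being the exception. The share of all genes split this way was not counted, so this is a description only. With each PFA-perfused or PBS-perfused library left out in turn, 5 to 7 of the 8 were called higher.

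In unperfused against PBS-perfused cells 6 markers were called lower, where 36.5% of all tested genes were lower, and 1 (Cd68) higher, where 13.1% were. The medians were -0.98 for the 8 markers and -0.37 for all tested genes. Both unperfused values were below both PBS-perfused values for 9 of the 10 genes, a split not counted over all genes. In unperfused against PFA-perfused cells, 1 marker (Cd68) was called higher and 1 (Lyz2) lower, where 17.4% of all tested genes were higher and 56.3% lower, with medians of -0.09 and -0.81. With trimmed mean scaling the median of all tested genes in that comparison went from -0.81 to 0.03, and Cd74 (1.29) and Csf1r (0.72) were then called higher too, which makes 3. The same step took the median in PBS-perfused against PFA-perfused cells from -0.50 to -0.03, and 7 markers were called higher there as before.

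Injury-activated cells had 7 markers called higher and 1 (Cd68) lower than unperfused cells of the same genotype, where 40.8% of all tested genes were higher and 29.3% lower. The median log2 difference was 1.31 for the 8 and 0.17 for all tested genes. For 9 of the 10 genes both injury-activated values were above both unperfused values, and how many of all genes split so was not counted. Against PFA-perfused cells all 8 were called higher, where 26.1% of all tested genes were higher and 47.3% lower. Against PBS-perfused cells 5 were higher (Ctss by 2.30, Lyz2 by 1.63, C1qb by 1.42, Laptm5 by 1.16 and Fcer1g by 0.59) and Cd74 was lower, where 34.4% of all tested genes were higher and 38.8% lower. Csf1r (0.25, adjusted p = 0.375, limma) and Cd68 (0.24, adjusted p = 0.517) were not called in that comparison, although Csf1r was without PBS-perfused replicate 2 (0.67, adjusted p = 0.00894). These comparisons share libraries, so their counts are not independent of each other.

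**Figure D4:**
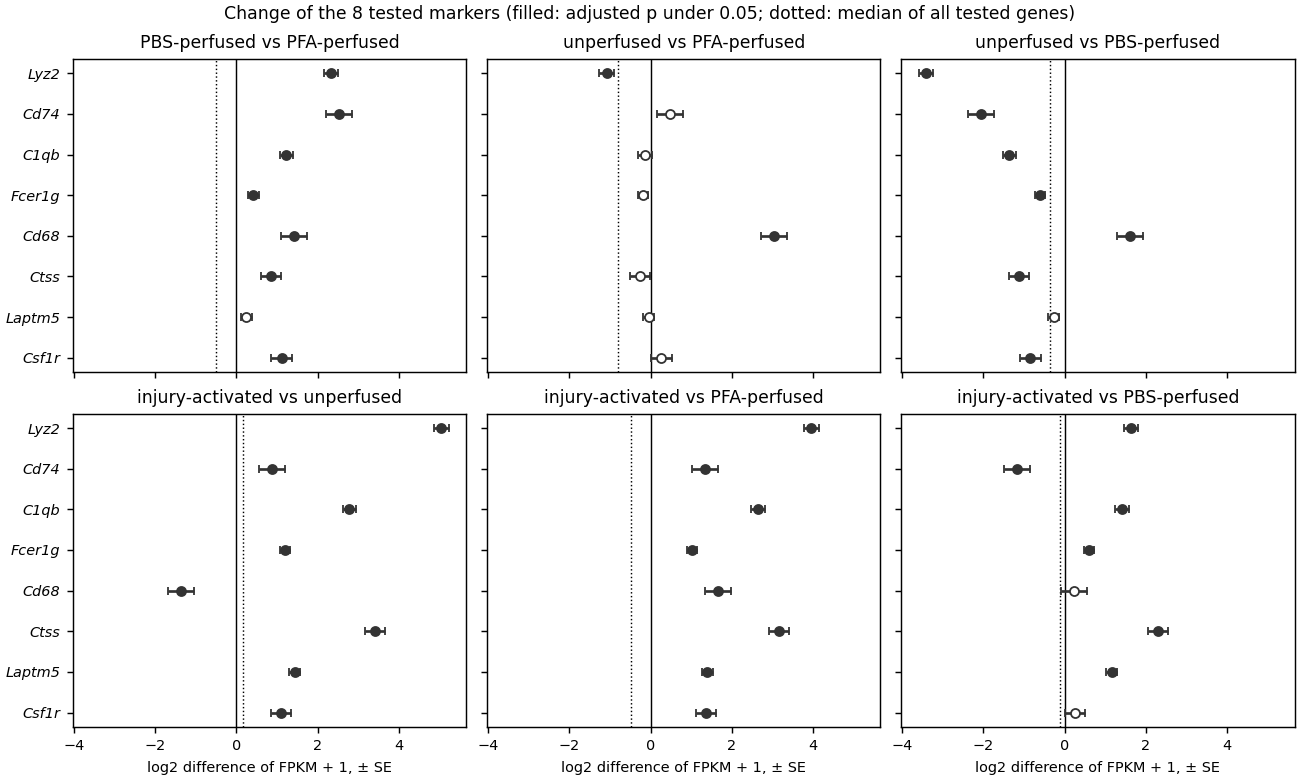
Log2 difference of FPKM + 1 with its SE (horizontal axes) for the 8 tested markers in the 6 comparisons; filled points passed an adjusted p of 0.05 and the dotted line is the median of all tested genes. Lyz2 spans -3.40 to 5.04 over the panels, and Cd68 is opposite to Lyz2 where unperfused cells are compared.

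Other macrophage and monocyte markers had their highest sum after injury and their lowest in unperfused cells. Their 24 genes summed to 6.59 and 7.38 FPKM in PFA-perfused, 24.1 and 22.2 in PBS-perfused, 3.94 and 4.07 in unperfused and 28.5 and 33.3 in injury-activated libraries, and 14 and 12 of the 24 were listed at 0 in the unperfused libraries. Of the 11 tested, 8 were called higher in injury-activated than in unperfused cells, led by Pf4 (2.06), the scavenger receptor Msr1 (1.98), the endotoxin co-receptor Cd14 (1.66) and the mannose receptor Mrc1 (1.53). Of all tested genes 40.8% were called higher there, and the median log2 differences were 1.39 for the 11 and 0.17 for all tested genes. Adgre1, Mrc1, Msr1, Trem2 and Fcgr3 were tested only because they reached 1 FPKM in the injury-activated libraries, so the count and the median carry that choice. With no filter 18 were called, and with a filter of 5 FPKM 1 was, without a share of all genes for these 2 filters. Trem2 and Fcgr3 are in this list and in that of the adaptors' partners, and C1qc is in this list and in the complement list. Adgre1, the F4/80 antigen of mouse macrophages, was at 1.67 and 2.00 FPKM after injury and at most 0.177 in the other 6 libraries. Itgam, the CD11b integrin of myeloid cells, was at 0.416 and 0.430 FPKM after injury and at most 0.0366 elsewhere.

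In PBS-perfused against PFA-perfused cells, 5 of these 11 were called higher (3 without PBS-perfused replicate 2 or without PFA-perfused replicate 2). Of all tested genes 17.8% were, and the medians were 0.25 and -0.50. The higher ones included Cd14 (3.41), Lyve1 (1.55), which lymphatic endothelium also expresses, and C1qc (0.65); Lyve1 and C1qc were tested only through the PBS-perfused libraries. Mpeg1, the pore-forming perforin-2, was lower (-0.96). Cd14 was at 14.2 and 11.8 FPKM in PBS-perfused and 9.07 and 10.8 in injury-activated libraries, against 0.281 and 0.340 in PFA-perfused ones. Adgre1 and Trem2 did not pass the test in this comparison (adjusted p = 0.577 and 0.44, limma).

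The sum of the pan-leukocyte genes was also highest after injury, at 35.97 and 37.15 FPKM, most of it from Lcp1. Cd52 and Rac2 had their highest group mean in PBS-perfused cells (1.53 and 0.416 FPKM) and Arhgdib in unperfused cells (4.82). The rest of the list had it after injury. Of 12 genes 6 were tested and 5 were called higher than in unperfused cells, with Lcp1, an actin bundler of leukocytes, at 23.9 and 23.9 FPKM after injury and 0.684 and 0 in unperfused libraries (log2 difference 4.26, adjusted p = 2.41e-04, limma). The integrin chain Itgb2 differed by 1.63 and the tetraspanin Cd53 by 1.26. Both were tested only through their injury-activated libraries. Of all tested genes 40.8% were called higher there, and the medians were 1.01 for the 6 and 0.17 for all tested genes. The count was 3 without injury-activated replicate 2 or without unperfused replicate 2. In PBS-perfused against PFA-perfused cells 1 of the 6 was called higher, where 17.8% of all tested genes were. After trimmed mean scaling 4 were, without a share of all genes for that scaling.

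Markers of other cell types moved in part with the myeloid markers. Of 12 tested endothelial genes 11 were called higher in PBS-perfused than in PFA-perfused cells, led by Cldn5 (3.92) and Pecam1 (3.14), where 17.8% of all tested genes were higher. All 12 were lower in injury-activated than in PBS-perfused cells, where 38.8% of all tested genes were. Cdh5, Kdr, Tie1 and Flt1 were tested only through the PBS-perfused libraries, so both counts carry that choice. Pecam1, the CD31 of the sort, was at 33.9 and 19.7 FPKM in PBS-perfused libraries and at most 3.13 in the other 6. Ly6a, the Sca-1 of the sort, was at 17.7 and 19.3 FPKM in PBS-perfused, 8.40 and 7.58 in injury-activated, 3.46 and 2.82 in PFA-perfused and 0.535 and 0.687 in unperfused libraries. The endothelial list summed to 280 and 196 FPKM in PBS-perfused, 69.2 to 77.5 in PFA-perfused, 33.9 to 48.4 in unperfused and 12.6 to 12.8 in injury-activated libraries. In the injury-activated group the same sum was the lowest of the 4 groups while that of the 10 markers was the highest.

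Stromal genes of fibro-adipogenic cells went both ways. Of 11 tested, 7 were called higher and 2 lower in PBS-perfused than in PFA-perfused cells, where 17.8% and 46.2% of all tested genes were. The matrix genes Dcn (3.29) and Lum (2.79) and Ly6a (2.24) were among the higher. In injury-activated against unperfused cells 5 were higher, among them Ly6a (2.48), and 4 lower, among them Dpt (-6.12) and Col3a1 (-3.38). There 40.8% of all tested genes were higher and 29.3% lower, shares near those of the list. Against PFA-perfused cells 6 were higher after injury, among them Lum (2.91), and 4 lower, where 26.1% and 47.3% of all tested genes were. Lum was at 10.8 and 9.46 FPKM after injury, 8.91 and 9.68 in PBS-perfused, 2.19 and 1.08 in unperfused and 0.669 and 0.320 in PFA-perfused libraries, so both groups with the highest Lyz2 were also those with the highest Lum. The 2 tested dendritic cell genes, Irf8 (1.60) and Zbtb46 (1.47), and the globin genes Hba-a1 (4.51) and Hbb-bs (4.48) were called higher in PBS-perfused than in PFA-perfused cells as well. Erythroid and platelet genes, the globins among them, summed to 109.6 and 124.7 FPKM in PBS-perfused libraries. Their PFA-perfused sums were far apart, at 49.48 in replicate 1 and 1.655 in replicate 2. Irf8 and Zbtb46 were lower in injury-activated than in unperfused cells (-2.88 and -1.10). The part of these cell types in the myeloid values was not tested.

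The sum of neutrophil genes was high with the myeloid markers in PBS-perfused libraries and not after injury. The 13 genes summed to 23.4 and 28.1 FPKM in PBS-perfused, 1.09 and 1.32 in unperfused and 2.38 and 1.72 in injury-activated libraries. Of 6 tested, 5 were lower after injury than in PBS-perfused cells, where 38.8% of all tested genes were. Genes at 1 FPKM or more numbered 6 and 5 in PBS-perfused libraries, 5 in PFA-perfused replicate 1, 1 in injury-activated replicate 1 and 0 elsewhere. The filter was thus met mainly through PBS-perfused libraries, so the count carries that choice. S100a8, a granule protein of neutrophils, was at 5.14 and 6.32 FPKM in PBS-perfused and at most 0.0969 in injury-activated and unperfused libraries. Lcn2 was called higher after injury than in unperfused (0.955) and PFA-perfused cells (0.961), and the other 5 tested were not called there. In these comparisons 40.8% and 26.1% of all tested genes were called higher. In the PFA-perfused group the neutrophil sum was 11.98 in replicate 1 and 0.246 in replicate 2, with 11 of the 13 genes listed at 0 in replicate 2. The sum of the 10 markers was 9.17 and 7.95 in these 2 libraries. Lyz2, which neutrophils also express, was at 1.86 and 1.88 in the same libraries, and the part of neutrophils in the marker values was not tested. Mast cell genes summed to at most 2.80 FPKM in any library and none of their 8 genes was tested.

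**Figure D5:**
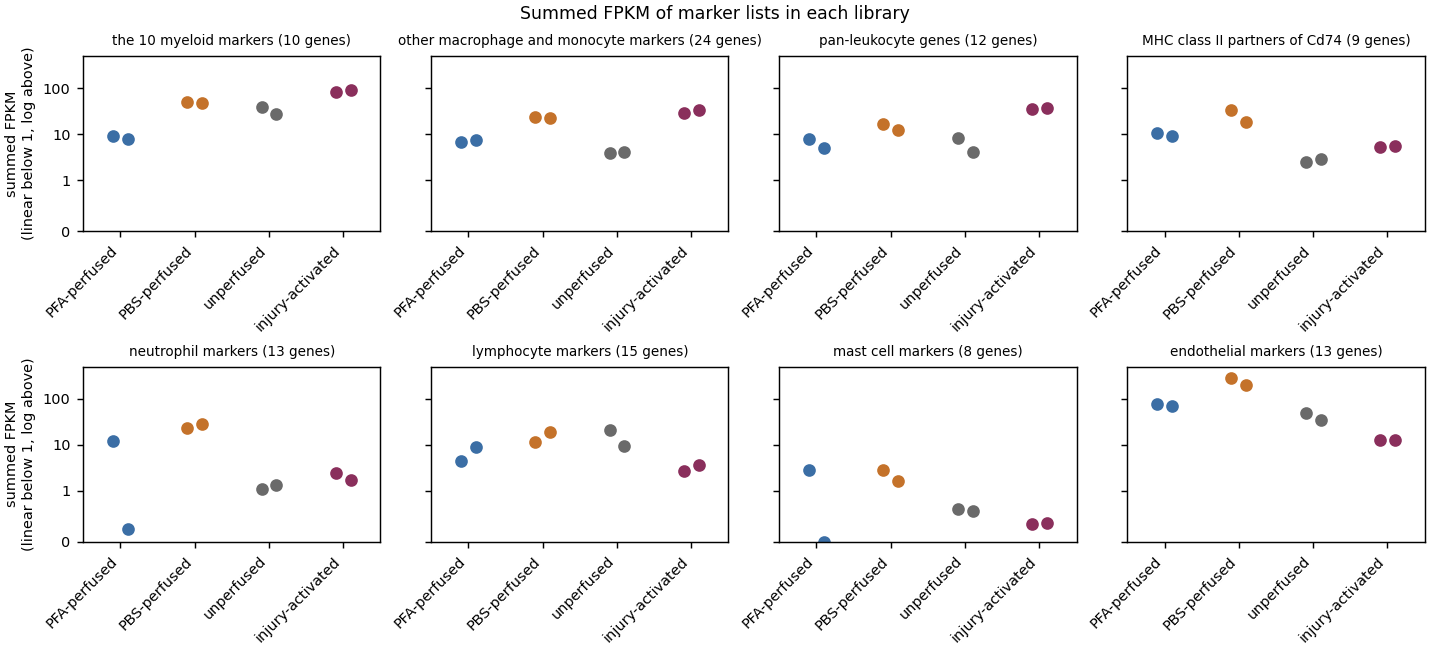
Summed FPKM (vertical axis, linear below 1 and log above) of the 10 myeloid markers and of 7 marker lists in each library (points). The endothelial and neutrophil sums peak in the PBS-perfused libraries (280 and 196, 23.4 and 28.1), whereas the myeloid and pan-leukocyte sums peak after injury.

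The genes with the most similar level profiles differed from member to member. Over the 8 libraries and 12515 genes, likeness was the Euclidean distance of centred log2(FPKM + 1) values, given as a description only. Laptm5 was nearest to the chemokine Ccl9 (0.204) and to Adgre1 (0.261), both myeloid genes, and Fcer1g to Rgs1 (0.285) and Slfn2 (0.286). Csf1r was nearest to Fam83g (0.409) and Mnda (0.473), and C1qb to Plscr1 (0.502) and Pcna (0.564), the latter a replication factor. Ctss was nearest to Sigirr (0.638) and Tcp1 (0.748), and Cd74 to Sdf2l1 (0.722) and H3f3b (0.790). Cd68 was nearest to Ugcg (0.933) and Rangap1 (0.969), and Lyz2, the most variable marker, to Hmgb2 (1.59) and Mgp (1.85).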

How the data were processed

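RNA-seq libraries of sorted mouse satellite cells were compared in 4 groups of 2. Per the submitters' processing notes, STAR 2.5.3a, StringTie 1.3.3, R 3.4.1 and mm9 were used, without roles or settings. The table deposited by the authors names no unit. The values as deposited were taken as FPKM, made by the authors with the software above per the submitters' processing notes, because they hold decimals, their totals differ between libraries and StringTie writes this unit. No scaling between libraries is stated and the values are not whole multiples of reads, so depth is unknown and no counting interval is given. Groups came from the labels.

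Values were analysed as log2(FPKM + 1). Genes at 1 FPKM or more in 2 libraries were kept, and 6 contrasts of 1 limma 3.58.1 fit (R 4.3.3, variance trend, no covariate) were tested over all 12515 genes, two-sided, with Benjamini-Hochberg adjustment at 0.05. The fit was tested on simulated data. The alternatives were trimmed mean and quantile scaling, no filter, a filter of 5 FPKM, a pseudocount of 0.1, a fit of only the 2 groups compared, the replicate number as a block, and each library left out. Leaving out Rn45s and Malat1 before rescaling, and averaging both injury-activated libraries, were added after seeing the data. The members, lists and comparisons were chosen with earlier results of these data known. All 10 members were named, with up to 4 called genes per list and comparison by size of difference and at least 1 FPKM in the higher group, a set of anchor genes such as Ptprc and Spi1, and the 2 nearest profiles per member; Eif4a1, Hmgxb3 and Lyz1 were chosen as neighbours or copies, and part of this set is printed. No mm9 genome or protein table was used here.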

Additional observations from a re-analysis of the deposited data

How the results depend on the processing

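Over all alternatives and comparisons, 761 of 798 values of single markers kept their direction and side of the threshold, 20 were no longer called, 9 became called and 8 changed sign. These 8 values were called neither before nor after the change. Several alternatives keep the log2 difference of a marker as it is by construction. These are both changes of filter, the fit of only the 2 groups compared and the replicate block. Leaving out a library of a group that is not compared does so too. Direction could not change there, so the 761 overstates how far direction was tested. In unperfused against PFA-perfused cells C1qb became 0.024 with trimmed mean scaling and 0.013 with quantile scaling, and ranged from -0.271 (without unperfused replicate 1) to 0.008 (without unperfused replicate 2) when single libraries were left out. Ctss became 0.013 and 0.022 with the same scalings and ranged from -0.621 (without PFA-perfused replicate 2) to 0.108 (without PFA-perfused replicate 1). In injury-activated against PBS-perfused cells, leaving out PBS-perfused replicate 1 or 2 gave -0.209 or 0.684 for Cd68 and -0.163 or 0.673 for Csf1r. Calls were gained here: Ctss was called lower without PFA-perfused replicate 2 (adjusted p = 0.0408, limma), and Csf1r higher without PBS-perfused replicate 2 (adjusted p = 0.00894). The causes were not tested. Markers called higher in unperfused than in PFA-perfused cells were 1, and 3 with either scaling. Markers called lower there were 1, 2 without the filter, 2 with the pseudocount of 0.1, and 1 to 2 when single libraries were left out. With a filter of 5 FPKM, which left 5 markers tested, those higher after injury were 4 of 5 against unperfused, 5 against PFA-perfused and 3 against PBS-perfused cells. Markers lower after injury than in PBS-perfused cells were 1, 2 without the filter, and 0 to 1 when single libraries were left out. The replicate number as a block left every count of called markers as it was, for example 7 higher in PBS-perfused than in PFA-perfused cells. Libraries of the same number deviated together with r of -0.05 to 0.12, so the number was not taken as a pairing. Counts of the marker lists depended on the filter, which sets how many of their genes are tested: without it, macrophage markers called higher in PBS-perfused than in PFA-perfused cells went from 5 to 8, class II genes from 3 to 6, and pan-leukocyte genes called higher after injury than in unperfused cells from 5 to 9. With 5 FPKM, neutrophil genes called higher in PBS-perfused than in PFA-perfused cells went from 5 to 1, and the complement genes from 5 to 2. The shares of all genes called under these other filters are not given here, so these counts have no background beside them. Without read counts, differences below about 1 FPKM cannot be set against counting error.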
